A study of Mus musculus with 4 samples.

Results

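The gliogenic transcription factors described here are 10 genes that were chosen by name, Sox9, Sox2, Nfia, Nfib, Nfic, Nfix, Zbtb20, Rfx4, Lhx2 and Hopx, out of 25393 genes listed for the series. Each symbol matched 1 gene, and all 10 were detected in every library. The libraries came from primary astrocyte cultures of the cortex and hippocampus of untreated C57BL/6 mice at postnatal day 1, with 2 libraries from Tet1 wild-type (WT) animals and 2 labelled tet1-/- (KO). The deletion is constitutive, so all cells of a KO animal carry it. The mice in each isolation numbered 2, and the cells grew for about 7 days in coated flasks, were shaken at 260 rpm and were collected 24 h later. Nothing in the labels says that replicates came from separate isolations, so a p-value here measures only the spread between these libraries. TET1 is an enzyme that oxidises methylated cytosine in DNA, and the comparison of WT with KO asks how the astrocyte transcriptome differs without it.

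Gliogenesis is the switch by which neural stem cells stop making neurons and start making astrocytes and oligodendrocytes. SOX9 and the nuclear factor I (NFI) proteins are core activators of that switch, and NFIA acts together with SOX9 on a shared set of astrocyte genes. SOX2 maintains neural stem cells and remains expressed in astrocytes, ZBTB20 and RFX4 act in the developing cortex and its glia, LHX2 holds cortical progenitors in the neurogenic state, and HOPX marks outer radial glia and quiescent hippocampal stem cells.

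Values below are of 2 kinds. A normalized count is the number of reads on a gene divided by the size factor of its library, and 1 read was worth between 0.901 and 1.07 normalized counts. FPKM, reads scaled to both the exon length of the gene and the depth of the library, was computed from the whole reads and is the scale on which different genes are compared. The reads on genes numbered from 18749610 to 22673555 per library. Tet1 itself had 266 and 121 normalized counts in WT replicates 1 and 2 against 173 and 463 in the labelled KO replicates 1 and 2. It was thus no lower under the KO label, with a log2 fold change of 0.66 (SE 0.65, limma adjusted p = 0.691). Reads on exons outside the deleted part would not check the genotype, and the deleted exons were not analysed here. Xist, the RNA that coats the inactive X chromosome of female cells, was nearly absent in WT (8.54 and 0.92 normalized counts) and high in labelled KO (2896 and 13367), so the sex of the pooled mice and the genotype label cannot be told apart. The groups are therefore called WT and labelled KO throughout, and fold changes are labelled KO over WT.

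Some members that stood apart between the labels are shown by the 250 bases that precede their RefSeq start sites. They are Sox2 and Rfx4 (lower in both labelled KO libraries) and Lhx2 (higher in both). Sox9, Nfia and Nfic were also lower in both and are not printed. Of all tested genes, 25.4% were lower in both and 22.5% higher in both. The sequences are from RefSeq on GRCm38.p6, plus strand, and capitals mark CpG dinucleotides, the bases on which TET enzymes act. Sox2 covers chr3:34649745-34649994, Rfx4 covers chr10:84755798-84756047 and Lhx2 covers chr2:38339031-38339280, each in the 5′ to 3′ direction. The RefSeq start sites of Sox2 and Rfx4 are 34649995 and 84756048, and the annotated genes start at 34650405 and 84756062. The bases just after those RefSeq start sites were not found in a GENCODE transcript of the gene, unlike those of Lhx2.
Sox2: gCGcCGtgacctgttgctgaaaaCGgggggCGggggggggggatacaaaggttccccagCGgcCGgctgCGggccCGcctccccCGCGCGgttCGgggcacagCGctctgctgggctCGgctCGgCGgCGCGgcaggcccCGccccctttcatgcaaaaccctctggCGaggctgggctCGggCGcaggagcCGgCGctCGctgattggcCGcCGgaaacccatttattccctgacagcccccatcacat
Rfx4: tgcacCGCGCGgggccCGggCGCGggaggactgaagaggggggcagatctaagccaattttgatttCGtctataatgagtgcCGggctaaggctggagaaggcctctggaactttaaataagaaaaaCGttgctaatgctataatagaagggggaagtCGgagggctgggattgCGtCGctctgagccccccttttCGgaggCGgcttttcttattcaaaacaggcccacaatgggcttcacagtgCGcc
Lhx2: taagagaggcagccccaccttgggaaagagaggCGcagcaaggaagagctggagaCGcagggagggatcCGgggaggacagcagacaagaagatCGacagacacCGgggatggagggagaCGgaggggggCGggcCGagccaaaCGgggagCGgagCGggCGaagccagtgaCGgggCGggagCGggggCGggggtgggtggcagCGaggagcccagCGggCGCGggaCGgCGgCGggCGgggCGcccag

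RefSeq windows, each with 250 bases before and 50 bases after a start site, were found for 8 of the 10 genes, 14 windows in all. Sox9 and Nfib had no entry. The printed 250 bases hold 27 CpG in Sox2, 15 in Rfx4 and 25 in Lhx2. Over the whole windows, with the 50 bases after the start site, the counts were 27, 20 and 34, and the median of 32851 windows was 7. Fewer CpG were found in 84.5% of windows than in that of Sox2, in 73.5% than in that of Rfx4 and in 92.3% than in that of Lhx2. Rfx4 and Lhx2 each have a second window further into the gene, with 3 CpG in Rfx4 and 29 in Lhx2. Windows below the median were that second window of Rfx4, those of Nfia (2 CpG) and Zbtb20 (3), and 2 of the 4 Nfix windows (4 and 2). None of these lies at the annotated start of its gene. The Nfia start site, chr4:97581943, lies before the annotated gene, which begins at 97772734. That of Zbtb20 (chr16:43247284) and those of the Nfix windows (chr8:84775828 and 84772875) lie inside their genes. The window of Nfic held 24 CpG. Letters bound by the families themselves were searched on both strands, namely TTGGC (an NFI site), ACAAT (SOX), GTTGCC (RFX) and TAATTA (LIM homeodomain). TTGGC occurred in 7 of the 14 windows and in 46.7% of all windows, ACAAT in 4 and 31.0%, GTTGCC in 3 and 12.5%, and TAATTA in 1 and 5.29%. The Sox2 window held 1 TTGGC, at base -45 from the start site. The printed window of Rfx4 held 1 TTGGC, at base -198 on the opposite strand, and 1 ACAAT, at base -22. The printed window of Lhx2 held 1 TTGGC, at base -112 on the opposite strand. No match overlapped another. Such matches describe the letters and do not show binding.

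Among the 10 factors, Sox2, Sox9 and Nfix had the highest levels. By mean FPKM over the 4 libraries, Sox2 ranked 2, Sox9 ranked 9 and Nfix ranked 11 among the 1213 genes that the deposited table assigns to a transcription factor family. Lhx2 ranked 35, Nfic 55, Zbtb20 111, Hopx 113, Nfib 146, Rfx4 168 and Nfia 248.

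In WT, mean FPKM was 259 for Sox2, 126 for Sox9, 82.2 for Nfix, 32.2 for Lhx2, 31.3 for Nfic, 21.5 for Zbtb20, 18.6 for Hopx, 17.9 for Rfx4, 13.0 for Nfib and 10.7 for Nfia. The WT libraries of Sox2, Sox9 and Nfix were each clear of those of the next gene down, whereas from Lhx2 on each gene overlapped with its neighbour. In labelled KO, mean FPKM was 151 for Sox2, 83.5 for Nfix, 57.2 for Sox9, 48.9 for Lhx2, 27.2 for Nfic, 16.3 for Hopx, 15.8 for Nfib, 13.8 for Zbtb20, 8.83 for Rfx4 and 7.44 for Nfia. There Sox2 stood clear of Nfix and Lhx2 stood clear of Nfic, whereas Nfix overlapped with Sox9 and Sox9 with Lhx2. Genes with several transcripts depend on the length used. With the longest coding transcript in place of all exons, mean FPKM in WT and labelled KO was 21.3 and 25.9 for Nfib, 49.7 and 75.7 for Lhx2 and 24.6 and 15.7 for Zbtb20.

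**Figure D1:**
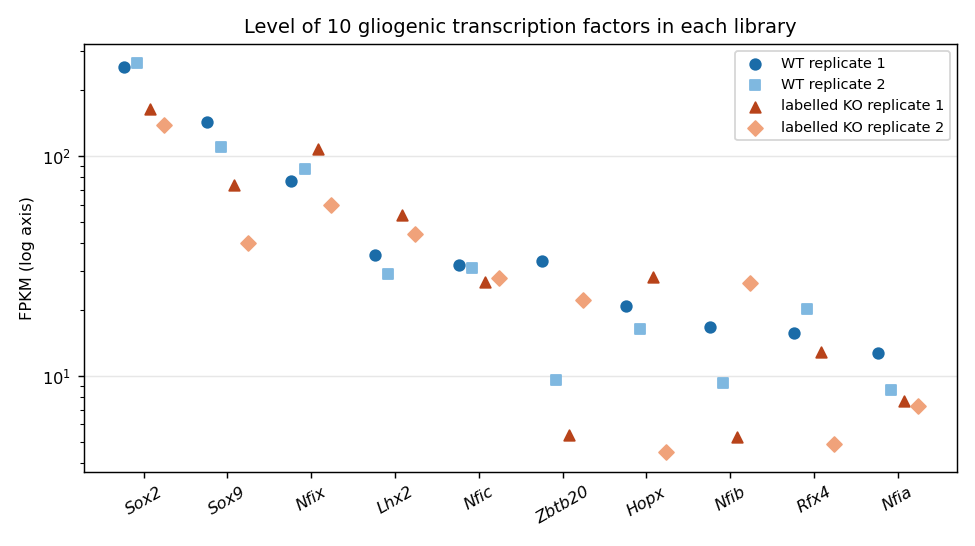
FPKM (log axis) of each factor in each of the 4 libraries, ordered by the mean; each point is 1 library. Sox2 is highest in every library, and for Zbtb20, Nfib and Hopx the libraries with the same label lie far apart.

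None of the 10 factors passed an adjusted p of 0.05 between labelled KO and WT by limma, edgeR or DESeq2. Among all 22094 genes tested by limma the share called at that threshold was 0%, and DESeq2 called 6.5% of the 17024 genes it gave an adjusted p. At an unadjusted limma p under 0.05, 1 factor, Sox9, was lower and 0 were higher, against 9.18% of all tested genes lower and 4.54% higher. DESeq2 also gave 1 factor, Sox9, an unadjusted p under 0.05, and edgeR gave 0. Both labelled KO libraries lay below both WT libraries for 5 factors (Sox9, Sox2, Nfia, Nfic and Rfx4), where 25.4% of all tested genes did so. Both lay above for 1 factor (Lhx2), where 22.5% of all tested genes did so. The groups overlapped for the other 4, Nfib, Nfix, Zbtb20 and Hopx. The median log2 fold change was -0.55 over the 10 factors, -0.12 over the 1148 tested genes with a factor family and -0.07 over all tested genes. Below zero were 8 of the 10 factors, 677 of the 1148 and 11857 of all 22094 tested genes.

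**Figure D2:**
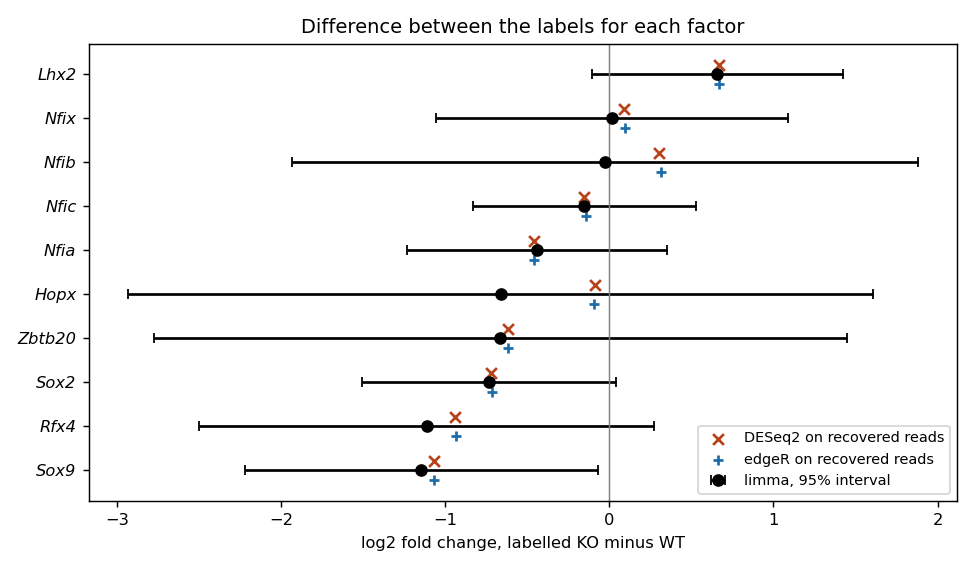
Log2 fold change of each factor, labelled KO minus WT, by limma with its 95% interval (black), by DESeq2 (crosses) and by edgeR (plus signs). Of the limma intervals, only that of Sox9, from -2.22 to -0.07, leaves out zero, and its adjusted p is 0.351.

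Sox9 (ENSMUSG00000000567, chr11:112782224-112787760 on GRCm38, plus strand), the activator that switches on the glial programme, had the largest log2 fold change of the 10 with all 4 libraries, just beyond that of Rfx4. It was not the largest with any 1 library left out, where Rfx4, Zbtb20 or Hopx exceeded it. It was at 11852 and 9440 normalized counts in WT replicates 1 and 2 and at 6788 and 3362 in the labelled KO replicates 1 and 2. All WT values were above all labelled KO values, and labelled KO replicate 2 was the lowest. Its log2 fold change of -1.15 (SE 0.43, 95% interval -2.22 to -0.07) did not pass by limma (adjusted p = 0.351). The difference by DESeq2 was -1.07 (adjusted p = 0.295).

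Sox2 (ENSMUSG00000074637, chr3:34650405-34652461, plus strand) encodes the stem-cell factor of the same HMG-box family. It was at 10449 and 11318 normalized counts in WT and at 7470 and 5736 in labelled KO, with no overlap. Its log2 fold change was -0.73 (SE 0.31, 95% interval -1.51 to 0.04, limma adjusted p = 0.383). The libraries within each label were close, 1.08 times apart in WT and 1.30 times in labelled KO.

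Sox2 lies inside Sox2ot, a long noncoding gene on the same strand, so reads at that place could be split between them. Sox2ot was at 1210 and 1610 normalized counts in WT and at 725 and 412 in labelled KO, again without overlap. Its log2 fold change was -1.35 (SE 0.39, limma adjusted p = 0.273). The ratio of Sox9 to Sox2, as log2 of FPKM, was -0.83 and -1.27 in WT and -1.15 and -1.78 in labelled KO. The mean difference was -0.41, with an exact two-sided permutation p of 0.667, where 2 against 2 libraries cannot give less than 0.333. The difference was -0.098 without labelled KO replicate 2, -0.19 without WT replicate 1, -0.64 without WT replicate 2 and -0.73 without labelled KO replicate 1.

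The 4 NFI genes encode closely related proteins that bind DNA as dimers at the same sites. Nfix made up the largest share of the family in every library. Of the summed FPKM of the 4 genes, it held 55.6% and 64.3% in WT and 73.1% and 49.3% in labelled KO. Nfia and Nfib, the members most tied to the onset of gliogenesis, together held 21.3% and 13.1% in WT and 8.77% and 27.8% in labelled KO. Labelled KO replicates 1 and 2 were the lowest and the highest of the 4 libraries. The difference of the means was 1.09 percentage points (exact two-sided permutation p = 1). The summed FPKM itself varied less, at 138 and 136 in WT and 147 and 121 in labelled KO.

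**Figure D3:**
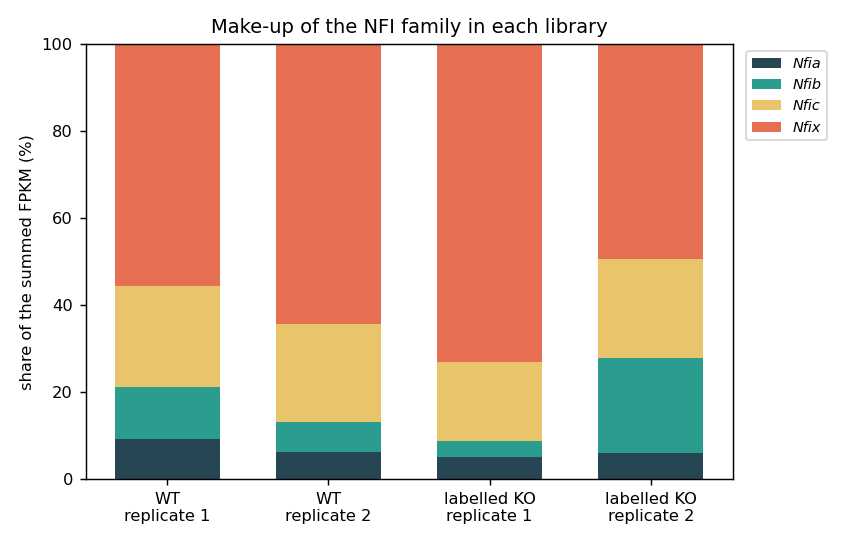
Share of each NFI gene in the summed FPKM of the 4 genes (percent), 1 bar per library. Nfix takes from 49.3% to 73.1%, and the Nfib share, from 3.58% to 21.8%, varies more between the labelled KO libraries than between the labels.

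Nfia (ENSMUSG00000028565, chr4:97772734-98118874, plus strand) encodes the member known to be needed for the onset of gliogenesis in the spinal cord. It had 2773 and 1951 normalized counts in WT against 1841 and 1596 in labelled KO. The groups did not overlap, but WT replicate 2 and labelled KO replicate 1 were close. This gave -0.44 as the log2 fold change (SE 0.31, limma adjusted p = 0.581).

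Nfic (ENSMUSG00000055053, chr10:81396186-81455635, minus strand), known best for its role in tooth root development, was the steadiest of the 10. It had 4232 and 4252 normalized counts in WT against 3922 and 3715 in labelled KO. The WT libraries were 1.00 times apart. Of genes with a mean of at least 50 normalized counts, 1.37% differed by less between those libraries. Both labelled KO values of Nfic were below both WT values, with a log2 fold change of -0.15 (SE 0.27, 95% interval -0.83 to 0.53, limma adjusted p = 0.833).

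Nfix (ENSMUSG00000001911, chr8:84699876-84800344, minus strand), which promotes the maturation of neural progenitors and glia, was at 11303 and 13406 normalized counts in WT. Labelled KO replicate 1 was above both, at 17485, and replicate 2 was below both, at 8847. The log2 fold change was 0.01 (SE 0.43, limma adjusted p = 0.993), with a 95% interval from -1.06 to 1.09 that covers a halving and a doubling.

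Nfib (ENSMUSG00000008575, chr4:82290173-82705750, minus strand), which acts with NFIA in cortical glia, was at 4990 and 2881 normalized counts in WT and at 1744 and 7961 in labelled KO. The labelled KO libraries held both the lowest and the highest value and were 4.57 times apart. Its log2 fold change was -0.03 (SE 0.76, limma adjusted p = 0.993), and by DESeq2 it was 0.30.

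Zbtb20 (ENSMUSG00000022708, chr16:42875881-43642602, plus strand) encodes a zinc-finger repressor needed for hippocampal neuron identity and for astrocyte production. It varied in the same libraries as Nfib. It was at 20552 and 6118 normalized counts in WT and at 3636 and 13782 in labelled KO, 3.36 times apart in WT and 3.79 times in labelled KO. WT replicate 1 and labelled KO replicate 2 were high for both genes, and the groups overlapped. On the log2 scale the fold change was -0.66 (SE 0.84, limma adjusted p = 0.761). By the distance between centred log2 values over the 4 libraries, Nfib and Zbtb20 were each other's nearest member (0.949), and the next nearest were at 1.71 for Nfib and 1.76 for Zbtb20.

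Long genes also tended to differ between these replicates. For 89 genes of like exon length to Zbtb20, the median log2 difference of replicate 1 minus replicate 2 was 0.45 in WT and -0.63 in labelled KO, where that of Zbtb20 was 1.75 and -1.92. For 1238 genes of like length to Nfib the medians were 0.20 and -0.33, where Nfib was at 0.79 and -2.19. The part of gene length in these values was not tested. Zbtb20 also overlaps Gm19522, an antisense gene at 516 and 214 normalized counts in WT and at 27.8 and 7.21 in labelled KO, with a log2 fold change of -4.44 (SE 0.82, limma adjusted p = 0.163). The counting is not stated to use strand, so reads of this pair may be mixed. In WT both genes were higher in replicate 1, whereas in labelled KO Gm19522 was higher in replicate 1 and Zbtb20 in replicate 2.

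**Figure D4:**
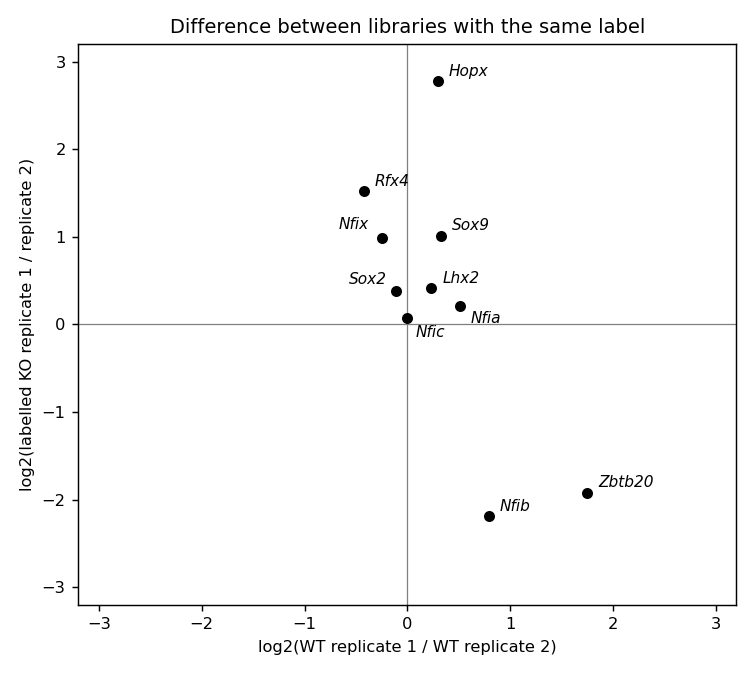
Log2 difference of replicate 1 over replicate 2 within labelled KO (vertical axis) against that within WT (horizontal axis) for each factor. Nfib and Zbtb20 lie alone at the lower right, and Hopx has the widest gap within labelled KO, 2.78.

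Rfx4 (ENSMUSG00000020037, chr10:84756062-84906538, plus strand), a winged-helix factor needed for dorsal midline and cilia formation in the brain, was at 1477 and 1981 normalized counts in WT. It was at 1338 and 466 in labelled KO, below both WT libraries, though replicate 1 was near WT replicate 1. The log2 fold change was -1.11 (SE 0.55, 95% interval -2.50 to 0.27, limma adjusted p = 0.443). It was -0.35 without labelled KO replicate 2 and -1.87 without labelled KO replicate 1. Sox9 and Rfx4 were each other's nearest member (distance 0.642).

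Lhx2 (ENSMUSG00000000247, chr2:38339281-38369733, plus strand), a LIM homeodomain factor that selects cortical identity and holds back astrocyte formation, was the only factor higher in both labelled KO libraries. It was at 3111 and 2647 normalized counts in WT and at 5219 and 3923 in labelled KO. The libraries within a label were 1.18 and 1.33 times apart, and the groups did not overlap. Its log2 fold change of 0.66 (SE 0.30, 95% interval -0.11 to 1.42) did not pass by limma (adjusted p = 0.422) or DESeq2 (adjusted p = 0.526).

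Hopx (ENSMUSG00000059325, chr5:77086988-77115121, minus strand), a small homeodomain protein that does not bind DNA itself, was at 632 and 515 normalized counts in WT. Labelled KO replicate 1 was the highest of the 4 libraries, at 944, and replicate 2 the lowest, at 137. They were 6.89 times apart. Of genes with a mean of at least 50 normalized counts, 95.6% differed by less between those libraries. By limma the log2 fold change was -0.66 (SE 0.90, adjusted p = 0.780) and by DESeq2 -0.09. Hopxos, antisense to Hopx, was at 0 in both WT libraries and at 4.28 and 3.61 normalized counts in labelled KO.

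Other annotated genes overlap 9 of the 10 factors on GRCm38, and Sox9 has none. Of 24 such genes 16 were in the deposited table, and 4 had 100 or more normalized counts on average, namely Sox2ot, Gm19522, Gm11266 in Nfib and E130114P18Rik at the start of Nfia. Gm11266 was at 176 and 120 normalized counts in WT and at 173 and 57.7 in labelled KO. E130114P18Rik was at 248 and 272 in WT and at 287 and 123 in labelled KO. Both are small beside the factor they overlap.

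**Figure D5:**
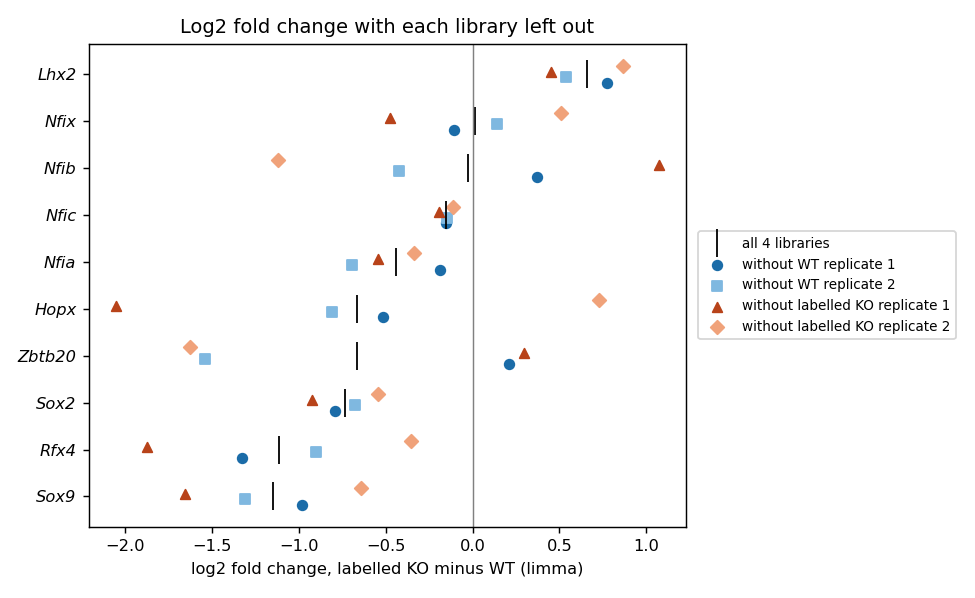
Log2 fold change of each factor (limma, labelled KO minus WT) with all 4 libraries (bar) and with each library left out in turn (points). Sox9, Sox2, Rfx4, Nfia and Nfic stay below zero and Lhx2 above it, whereas Nfib, Nfix, Zbtb20 and Hopx cross zero.

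The direction of 6 factors did not turn when any 1 library was left out. These are the factors whose groups do not overlap, so no such removal could turn them. Of all tested genes, 25.4% were lower without overlap and 22.5% higher, and the same holds for them. Log2 fold changes ran from -1.65 to -0.64 for Sox9, from -0.92 to -0.54 for Sox2, from -1.87 to -0.35 for Rfx4, from -0.69 to -0.19 for Nfia, from -0.19 to -0.11 for Nfic and from 0.45 to 0.86 for Lhx2. Without labelled KO replicate 2 the value of Sox9 was -0.64, and that of Nfia was -0.19 without WT replicate 1 and -0.69 without WT replicate 2. Zbtb20 was at -1.62 without labelled KO replicate 2, at 0.30 without labelled KO replicate 1 and at 0.21 without WT replicate 1. Hopx was at -2.05 without labelled KO replicate 1 and at 0.73 without labelled KO replicate 2.

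The gene whose profile over the 4 libraries was nearest to that of Sox9, among 12867 genes with a mean of at least 50 normalized counts, was Fam227a (distance 0.040 on centred log2 values). It was at 329 and 259 normalized counts in WT and at 185 and 94.6 in labelled KO. Polr3gl, at 649 and 526 against 405 and 185, and Aldh9a1, at 1543 and 1290 against 873 and 471, followed. With 4 libraries such likeness is a description only.

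Other members of the same families were mixed in direction. Of 14 tested genes of the SOX family outside the 10, 7 were below and 7 above zero, and the median log2 fold change was 0.00. At an unadjusted limma p under 0.05, 2 were lower and 2 higher. None passed by limma after adjustment, while DESeq2 called 2, both higher. Sox8, a relative of Sox9 in the SOXE group, was at 623 and 677 normalized counts in WT and at 1854 and 2029 in labelled KO. Its log2 fold change, 1.58 (SE 0.28, limma adjusted p = 0.153, DESeq2 adjusted p = 0.0059), was opposite in sign to that of Sox9. Sox3, a relative of Sox2 in the SOXB1 group, was at 100 and 70.8 in WT and at 344 and 213 in labelled KO. Its log2 fold change was 1.67 (SE 0.46, limma adjusted p = 0.256, DESeq2 adjusted p = 0.044). Sox13 had a log2 fold change of -1.18 (SE 0.42), and Sox15 was at 5.33 and 3.68 normalized counts in WT and at 0 in both labelled KO libraries. Sox10, which with Sox8 and Sox9 makes up the SOXE group, was at 10.1 normalized counts or less in every library.

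Of the other RFX genes 6 were tested, 4 below and 2 above zero, with a median log2 fold change of -0.34. The lowest were Rfx3 (-0.86) and Rfx2 (-0.80), which act in ciliated cells, and the highest were Rfx1 (0.34) and Rfx7 (0.60). The other LIM homeodomain genes were close to silent beside Lhx2. Their summed FPKM was from 0.865 to 6.84 per library, 5 were tested, and none had an unadjusted p under 0.05. Lmx1a gave most of the highest sum, at 511 normalized counts in labelled KO replicate 1 and from 35.2 to 70.4 in the other 3 libraries. Lhx6 (-0.83), Lhx4 (-0.63) and Lhx5 (1.12) rested on fewer than 9 normalized counts in each library.

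Of 23 other regulators of glial fate, among them genes of the Notch, BMP and gp130 pathways, 10 were below and 13 above zero. Their median log2 fold change was 0.15, 1 was lower and 2 were higher at an unadjusted limma p under 0.05. None passed by limma after adjustment, while DESeq2 called 2, Rbpj and Etv4. Rbpj, the DNA-binding partner of Notch, had 3893 and 2311 normalized counts in WT against 1252 and 945 in labelled KO (log2 fold change -1.46, SE 0.37, limma adjusted p = 0.234, DESeq2 adjusted p = 0.045). Hes1, a Notch target, was at 103 and 148 in WT and at 226 and 775 in labelled KO (1.75, SE 0.66). Il6st, the gp130 receptor subunit, had a log2 fold change of -1.02 (SE 0.62), and Etv4, a factor downstream of FGF signalling, one of 1.58 (SE 0.42, limma adjusted p = 0.244, DESeq2 adjusted p = 0.033). Of the genes reported as joint targets of SOX9 and NFIA, Mmd2 was at 1185 and 2478 normalized counts in WT and at 1347 and 320 in labelled KO. Zcchc24 was at 8928 and 9220 against 12340 and 6540, and Apcdd1 at 30.9 and 68.0 against 39.6 and 54.1. All 3 overlapped between the labels, with log2 fold changes of -1.38, -0.01 and 0.01.

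Of 10 tested neurogenic factors 8 were above zero, with a median of 0.44, and 1, Insm1, had an unadjusted limma p under 0.05 (log2 fold change 1.58, SE 0.61). Dlx5 was at 4.28 in labelled KO replicate 1 and at 0 elsewhere, and Bcl11b stayed at 29.7 or less. Of 9 genes of radial glia 8 were above zero, with a median of 0.38, and Slc1a3 (-0.88) was below. Without overlap between the labels, 3 were higher and 1, Slc1a3, lower, against 22.5% and 25.4% of all tested genes. Slc1a3 and Fabp7 also count among the astrocyte markers below, and Pax6 and Hes5 among the regulators above. Nes and Tnc had an unadjusted limma p under 0.05 with log2 fold changes of 1.43 (SE 0.50) and 2.05 (SE 0.46). DESeq2 called 1 of the 9 after adjustment, Tnc (adjusted p = 0.0024). Hes5 stayed at 12.6 normalized counts or less.

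Of 17 astrocyte markers, 15 had their lowest value in labelled KO replicate 2, the exceptions being Gja1 and Fabp7. It is the library in which Sox9, Sox2, Rfx4, Nfia, Nfic, Nfix and Hopx were also lowest. The summed FPKM of the markers was 6836 and 7553 in WT and 7085 and 1357 in labelled KO. Of all 17, 14 were below zero, 4 had an unadjusted limma p under 0.05, all lower, and the median log2 fold change was -0.78. Gfap was at 58004 and 67297 normalized counts in WT and at 174853 and 9945 in labelled KO, and Aqp4 at 16135 and 11461 against 10259 and 3337. Aldh1l1 was at 4725 and 5999 against 4452 and 2490, and Slc1a3 at 40855 and 43257 against 28836 and 18194. S100b was low throughout, from 17.1 to 185. The lowest log2 fold changes were those of Gjb6 (-3.72), which was at 0 in labelled KO replicate 2, and Ndrg2 (-2.64), and the highest those of Gja1 (0.66) and Fabp7 (0.90). In cultures, fewer cells of a type and less RNA per cell cannot be told apart.

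Markers of microglia and of cell division stood apart between the labels. Of 15 microglia markers, which include the complement genes C1qa and C1qc, 15 were below zero, 11 had an unadjusted limma p under 0.05, and DESeq2 called 10 after adjustment. Their median log2 fold change was -3.27, and their summed FPKM was 79.5 and 127 in WT and 27.2 and 17.0 in labelled KO. C1qa (-4.54) and C1qc (-4.10) were lowest, and Tmem119 (-1.11) was among those nearest to zero. Of 10 proliferation genes 10 were above zero and had an unadjusted limma p under 0.05, with a median of 3.14 and a summed FPKM of 21.8 and 47.9 in WT against 80.3 and 131 in labelled KO. DESeq2 called 6 of them after adjustment. Pcna (1.15) and Mcm2 (1.34) were lowest, and Mki67 (3.94) and Ccnb1 (4.39) highest. The part of these cells and of division in the values of the factors was not tested.

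Markers of the oligodendrocyte lineage were 10, 7 below zero, with a summed FPKM of 153 and 228 in WT and 370 and 231 in labelled KO. The sum is mostly Olig1 (log2 fold change 0.68) and Olig2 (0.77), Cspg4 (-2.35) and Mbp (-1.36) were lowest, DESeq2 called 1 after adjustment, Cspg4, and the myelin gene Mog was at 0 in labelled KO replicate 1. Neuron markers were low, with a summed FPKM of 20.4 and 24.0 in WT and 29.1 and 31.0 in labelled KO. Of 10 tested, 8 were above zero, from Rbfox3 (2.66) and Dcx (2.25) to Map2 (-0.01) and Gad1 (-2.27). Rbfox3 was at 55.7 normalized counts in labelled KO replicate 1 and at 1.80 or less elsewhere. Dcx was at 7.49 or less in every library. Snap25 was at 0 in both WT libraries and at 1.07 and 2.70 in labelled KO. DESeq2 called 2 neuron markers, Gad1 (lower) and Tubb3 (higher). Meningeal and mural markers summed to 24.9 and 31.6 in WT and 28.8 and 20.7 in labelled KO. By limma 5 of 10 were below zero, from Dcn (-2.12) and Rgs5 (-1.52) to Col1a2 (1.42) and Col3a1 (1.57). The WT libraries of Col3a1 lay far apart, with 2.13 normalized counts for replicate 1 but 222 for replicate 2. Both labelled KO libraries fell between these, at 87.8 and 68.5, and DESeq2 gave Col3a1 the opposite sign (-0.52). Endothelial markers summed to at most 1.45 FPKM, and of 5 tested Pecam1 (-0.64) and Tek (-0.43) were lowest and Cdh5 (2.55) and Flt1 (1.54) highest. Flt1 was at 213 normalized counts in labelled KO replicate 2 and from 22.1 to 24.5 elsewhere. Cdh5, Pecam1 and Tek were at 21.6 or less in every library. Ependymal markers were, like the astrocyte markers, lowest in labelled KO replicate 2, with a summed FPKM of 151 and 215 in WT and 161 and 31.8 in labelled KO, and 6 of 6 below zero, from Dynlrb2 (-3.45) and Pifo (-2.66) to Tmem212 (-0.96) and Ccdc153 (-0.93).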

How the data were processed

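RNA-seq was analysed from 4 libraries, 2 WT and 2 labelled KO, grouped by their titles. Per the labels the build is mm10. The authors filtered paired-end reads and aligned them, and the aligner, counter and annotation are not given in the sources used here. The deposited table, although named for FPKM, holds a signal per gene that is read counts over a library size factor, since 100% of the values are whole multiples of 1 read. The plan foresaw that such values would take the place of FPKM, and its test was kept with them. The authors' group means, log2 fold changes and p-values were not used, and columns of other samples numbered 0.

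Genes whose mean reached 1 (22094) were fitted as log2(value + 1) in limma 3.58.1 (R 4.3.3, eBayes with trend), with Benjamini-Hochberg adjustment over all of them. The recovered reads went into edgeR 4.0.16 (quasi-likelihood) and DESeq2 1.42.0. The limma, edgeR and DESeq2 fits were tested on simulated data. FPKM used the exon length in the table, which equals that of GENCODE M21 for the 10 factors. Two-sided exact permutation tests were used for single values. Counts of reads limit precision little here, with 137 normalized counts the lowest value of a factor, and 2 libraries per label limit it more.

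The members and lists were chosen with earlier results of these data known. Besides the members, Tet1, Xist and fixed markers, the text names the 2 highest and 2 lowest genes of each list by log2 fold change and the 3 genes nearest to the factor with the largest change; some genes that this rule names are not reported here. Sox10, Mog, Snap25, Tubb3 and the genes that overlap a factor were added after their values were seen. Pseudocount, filter, scaling, model and left-out libraries were varied. The correlation of same-numbered libraries' deviations from their group means was -0.08, so the numbers were not taken as pairs.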

Additional observations from a re-analysis of the deposited data

How the results depend on the processing

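No alternative called any of the 10 factors at an adjusted p under 0.05. Over 17 alternatives, Sox9, Sox2, Rfx4, Nfia, Nfic and Lhx2 kept their direction. The alternatives with 1 library left out could not turn them, since their groups do not overlap. In the alternatives with all libraries, their adjusted p ran from 0.224 upward. The number with an unadjusted p under 0.05, 1 as reported, was 2 under quantile normalization, equal sums, the median log ratio, a crossed replicate block and a GC bin correction (the last 2 chosen after seeing the data). It was 0 with eBayes without trend and with edgeR, and from 0 (without either WT replicate) to 4 (without labelled KO replicate 1) with 1 library left out. The median log2 fold change of -0.55 was -0.30 by edgeR, -0.31 by DESeq2 and from -0.68 to -0.17 with 1 library left out (-0.17 without WT replicate 1, -0.35 without labelled KO replicate 2). Nfix turned to -0.057 when scaled by the median log ratio, -0.036 under equal sums, -0.15 under quantile normalization and -0.035 as FPKM. Nfib turned to 0.31 by edgeR and 0.30 by DESeq2. With 1 library left out, Nfix ran from -0.48 to 0.51, Nfib from -1.12 to 1.07, Zbtb20 from -1.62 to 0.30 and Hopx from -2.05 to 0.73, and the joint Nfia and Nfib share differed by -8.42 to 10.6 percentage points. The cause of these turns was not tested. The lone library left by a removal is assumed to vary like the other group. Among all tested genes, the number with an unadjusted p under 0.05 also fell without either WT replicate. It also rose without labelled KO replicate 1. The range of that number among the factors with 1 library left out is thus not particular to them.

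With the replicate block the log2 fold change of Sox9 was -1.15 (limma adjusted p = 0.367), and the block changed no call. The crossed pairing called 244 of all genes and 0 of the 10 factors, and the GC bin correction called 25 and 0. Over all genes limma called 0 at an adjusted p under 0.05 (3032 at an unadjusted p), edgeR 0 and DESeq2 1106. Scaling moved the median of all genes from -0.07 to between -0.14 and 0.08.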
